A study of Arabidopsis thaliana with 40 samples.

Results

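The comparison sets the shoot apex after the first 3 long days against the apex on the day of the move, in 5 genotypes of Arabidopsis thaliana at once. By their titles, 20 of the 40 ATH1 arrays of the series belong to it, 10 at day 0 and 10 at day 3, with 2 arrays for each genotype and day. Every plant had first spent 30 days at 21 °C with 9 h of light and 15 h of darkness a day. The day 3 plants had then received 3 days with 16 h of light and 8 h of darkness. The genotypes were the accessions Col (Columbia wild type, Col-0) and Ler (Landsberg erecta) and the mutants lfy-12 (LEAFY), co-2 (CONSTANS) and ft-2 (FT). The mutants are known as a Columbia allele of LFY and Landsberg erecta alleles of CO and FT, so Col and Ler differ by accession and each mutant line is represented by 1 allele. Arrays of days 5 and 7 were used only to show where a level stood later.

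In Arabidopsis, long days let the CO protein accumulate in the leaf, where it switches on FT, and the FT protein travels to the apex and acts there with the bZIP factor FD. LFY acts further along and gives the new primordia a floral fate. Col and Ler therefore flower soon after such a move, co-2 and ft-2 flower late, and lfy-12 leaves the vegetative state but makes shoot-like structures in place of normal flowers. A change at day 3 that is present in all 5 genotypes is one that was seen in lines with and without a mutation in CO, FT or LFY. There were no arrays of plants kept in short days beyond day 0, so day length, plant age and sampling day cannot be told apart, and the hour of sampling is not given in the labels.

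The arrays were alike in scale, with medians from 6.92 to 7.07 log2 units, and the correlation of replicate arrays over probe sets, which are not independent replicates, was 0.990 to 0.997. The standard deviation of the difference between replicates ran from 0.16 to 0.31 log2 units and was highest for Ler at day 0. Transcripts that separate the accessions stood at 5.36% of their level in the other background on co-2 day 3 replicate 1 and at 4.27% on ft-2 day 0 replicate 1, against -1.65% to 0.35% on the other 18 arrays. Below, these 2 are called the arrays that carried, or arrays with, the other accession's transcripts. The name stands for these readings, and what raised them was not tested. The co-2 array also had the lowest median (6.92) and the highest lower quartile (4.92) of the 20. The ft-2 array had a lower quartile of 4.76. Counts, shares and medians over co-2 and ft-2 are given with and without these 2 arrays. The labels do not say whether replicates came from separate plants, so the p-values measure the spread between these samples only. CLV3, a peptide gene of the stem cells at the tip of the shoot meristem, read 5.23 to 6.47 log2 units on the 20 arrays, above the lower quartiles of the arrays, which lay between 4.69 and 4.92. A list gene is counted as measured where a probe set lists that gene alone. For 8730 tested probe sets no gene is listed, so further list genes may be on the arrays without a name. The 6 measured genes of a 26-gene photosynthesis list, which marks leaf tissue, had a summed level of 13.33 to 14.18 log2 units at day 0 and 13.26 to 13.98 at day 3. The epidermis and trichome list was represented by TRY alone (6.11 to 6.77 at day 0 and 6.29 to 7.19 at day 3), and no gene of the vascular list had a probe set listed. The part that tissue composition played in the changes was not tested. In whole apices, fewer cells of a type and less RNA per cell cannot be told apart.

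Many transcripts moved within 3 long days, but few moved far. In the limma fit with genotype as a block, 3325 of 22746 probe sets (14.6%) passed a Benjamini-Hochberg adjusted p of 0.05 and are referred to as called. Of these, 1815 (7.98%) were higher at day 3 and 1510 (6.64%) were lower. A change of more than 2-fold was reached by 17 called probe sets that rose (0.0747%) and 30 that fell (0.132%). The median change over all probe sets was 0.01 log2 units, with a standard deviation of 0.17. Of the called probe sets, 2719 (12% of those tested) had the same sign in all 5 genotypes. In 398 risers, both day 3 arrays lay above both day 0 arrays in each of the 5 genotypes, a pattern found in 1.75% of all probe sets. In 380 fallers the day 3 arrays lay below in each genotype, against 1.68% of all probe sets. A single gene was listed for 1763 of the called probe sets, so the other 1562 are counted without a gene name. Without the 4 arrays of Ler the fit called 1907 probe sets.

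The 15 named rises and 15 named falls were the largest called changes among genes with the same sign in every genotype and with separated arrays in at least 4 genotypes. Separation in at least 4 genotypes was found in 5.74% of all probe sets with day 3 above and 5.06% with day 3 below. The named genes are a selection by size and by these arrays, and their values describe the largest changes that met these rules. Of them, 11 rises and 7 falls were also called separately in Col and Ler, in co-2 and ft-2, and in lfy-12, against 0.475% and 0.47% of all probe sets. The arrays of the 2 days did not overlap in any genotype for 13 of the 15 rises and 11 of the 15 falls. Over all probe sets these shares were 1.75% and 1.68%. Both counts follow in part from the naming rules, which used the same arrays. All 30 remained called in each of 34 alternative analyses, none of which had a term for replicate number within a day.

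Among transcription factors, EEL, a bZIP gene also known for its part in seed maturation, rose in every genotype. Its level was 5.83, 6.06 and 6.51 log2 units at day 0 (lowest, median and highest of 10 arrays) and 6.68, 6.98 and 7.39 at day 3. The lowest day 3 array therefore stood above the highest day 0 array across genotypes. The rise was 0.89 ± 0.09 log2 units (SE; limma adjusted p = 2.55e-06), from 0.58 in ft-2 to 1.18 in Ler and lfy-12. AT4G34400, of the plant-specific B3 family of DNA-binding proteins, went from 7.91, 8.51 and 8.91 to 9.07, 9.34 and 10.04, again with no overlap. It rose by 0.98 ± 0.10 (limma adjusted p = 2.65e-06), by 1.47 in Ler, 1.24 in lfy-12, 0.84 in ft-2, 0.75 in Col and 0.60 in co-2. Another bZIP gene, bZIP58, rose by 0.78 ± 0.12 (limma adjusted p = 0.000118), with its largest response in lfy-12 (1.53 ± 0.19) and its smallest in co-2 (0.45 ± 0.19). In lfy-12 its day 0 arrays read 7.94 and 7.24, the lowest of all, while every genotype lay between 8.92 and 9.55 at day 3.

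AT1G10980 had the largest size relative to its standard error among the named rises. It read 7.60, 8.14 and 8.75 at day 0 and 8.92, 9.34 and 9.90 at day 3, without overlap, and rose by 1.16 ± 0.07 (limma adjusted p = 4.36e-09). Its response was 0.87 in co-2 and lay between 1.09 (Col) and 1.32 (ft-2) in the other 4 genotypes, each with a standard error of 0.15. The interaction was not called (adjusted p = 0.69), which does not show that the genotypes responded alike. AT3G28500, one of the P2 genes for acidic proteins of the ribosomal stalk, rose by 0.89 ± 0.09 (limma adjusted p = 1.72e-06). It responded most in Ler, where the arrays went from 7.88 and 7.92 to 9.44 and 9.25, and least in lfy-12, where they went from 7.64 and 7.96 to 8.34 and 8.21. AT5G47600 rose by 1.41 ± 0.12 (limma adjusted p = 2.38e-07), from a day 0 median of 7.59 to a day 3 median of 8.79.

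**Figure D1:**
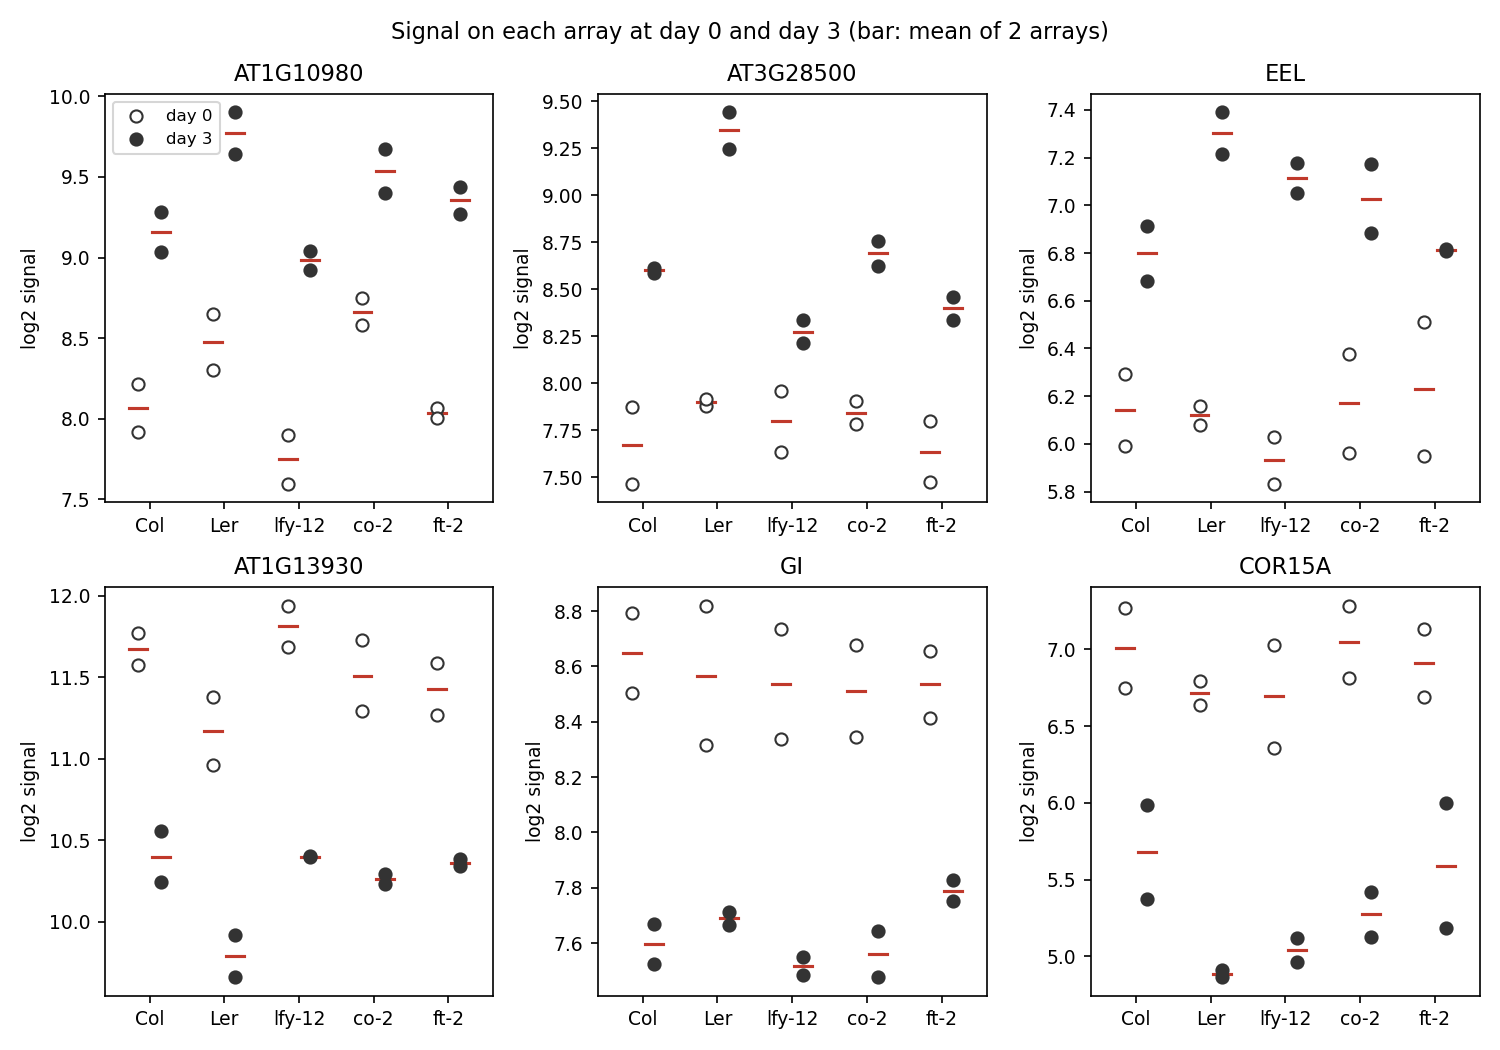
Log2 signal of 6 genes on each of the 20 arrays, by genotype, with day 0 as open and day 3 as filled points and the mean of the 2 arrays as a bar. AT1G10980, AT3G28500 and EEL lie higher and AT1G13930, GI and COR15A lower at day 3 in all 5 genotypes, without overlap between days.

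A pair of the rises belongs to 1 enzyme family. BGLU45 and BGLU46 are beta-glucosidases that act on the glucosides of lignin building blocks. BGLU45 rose by 0.88 ± 0.10 (limma adjusted p = 9.53e-06) and BGLU46 by 0.82 ± 0.09 (limma adjusted p = 4.01e-06). For BGLU46, the arrays went from 6.51 and 6.48 to 6.91 and 6.93 in Col, from 5.55 and 5.62 to 6.62 and 6.64 in co-2, and from 5.84 and 5.64 to 6.93 and 7.24 in lfy-12. The days were separated in every genotype for both genes, and lfy-12 responded most in both, by 1.59 ± 0.16 and 1.35 ± 0.12. These 2 genes are close neighbours in sequence family, so part of the signal of one probe set could come from the other gene's transcript, which was not tested.

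AT5G44630, which encodes a sesquiterpene synthase of the scent-terpene pathway, had the largest rise of the named genes and also the most unequal one. It went from 4.27, 5.16 and 5.47 to 5.69, 6.08 and 7.98 log2 units and rose by 1.46 ± 0.18 (limma adjusted p = 2.06e-05). Its lowest day 0 array lay below the lower quartiles of the arrays (4.69 to 4.92). The response was 0.58 in co-2, 0.78 in ft-2, 1.40 in lfy-12, 1.88 in Col and 2.67 in Ler, each ± 0.18, and the arrays of the days did not overlap in any genotype. The other named rises were AT3G27220 (0.86), AT1G68440 (0.85), AT4G33560 (0.82), AT3G16330 (0.80), AT5G25960 (0.79) and AT1G19540 (0.79). AT5G25960 rose by 1.40 in ft-2, 1.13 in Ler and 0.94 in co-2, and by 0.26 in lfy-12 and 0.23 in Col, each ± 0.18. A pair of probe sets with no single gene listed also rose far, 254098_at from a mean of 8.58 to 10.68 log2 units (SE of the rise 0.39) and 260869_at from 9.01 to 10.45 (SE 0.12).

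AT1G56300, a gene for a protein with a DnaJ domain, the signature of HSP70 partners, had the largest fall. Its level was 6.51, 7.73 and 9.24 at day 0 and 4.59, 4.92 and 6.63 at day 3, and only the second Col array of day 3, at 6.63, overlapped any day 0 array of another genotype. It fell by 2.77 ± 0.23 log2 units, or 6.84-fold (limma adjusted p = 1.54e-07). Its day 3 median lay near the lower quartiles of the arrays (4.69 to 4.92), so the fall can be larger than its values show. Its response was -3.98 in lfy-12 and -3.05 in Col, and lay between -2.41 (co-2) and -2.21 (ft-2) in the Ler background, each ± 0.43, and the interaction was not called (adjusted p = 0.53). AT1G13930 had a narrower spread, at 10.96, 11.58 and 11.94 against 9.66, 10.32 and 10.55, with no overlap between the days. It fell by 1.28 ± 0.07 (limma adjusted p = 1.18e-09), by 1.06 in ft-2 to 1.41 in lfy-12. AT2G23840 was as even, with a fall of 1.01 ± 0.07 (limma adjusted p = 3.03e-08) that ran from 0.89 in Col to 1.22 in Ler.

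Several falls were in genes known from cold and drought. COR15A encodes a chloroplast protein that protects membranes in the cold, and it went from a median of 6.80 to a median of 5.16, with the highest day 3 array below the lowest of day 0 (6.36). It fell by 1.58 ± 0.12 (limma adjusted p = 7.15e-08), by between 1.32 in ft-2 and 1.83 in Ler. AT4G30650, of the low temperature and salt responsive family of small membrane proteins, went from 9.09, 9.87 and 10.18 to 7.57, 8.19 and 8.62, also without overlap, and fell by 1.61 ± 0.12 (limma adjusted p = 2.60e-08). The dehydrin gene COR47 fell by 1.07 ± 0.13 (limma adjusted p = 1.70e-05), by 1.60 in Ler, 1.39 in co-2 and 1.25 in ft-2 and by 0.58 in Col and 0.53 in lfy-12, each ± 0.22. In a list of 20 cold and drought genes, 5 were measured, and 4 of them were called lower, against 6.64% of all probe sets. This list, like the others, was chosen with earlier results of these data known, so the comparison is a description only. COR15A and COR47 are also among the falls named for their size. The 4 were COR15A, COR47, COR15B (-1.10 ± 0.24, limma adjusted p = 0.0033) and the dehydrin gene LTI30 (-0.78 ± 0.15, limma adjusted p = 0.00145). The zinc finger gene STZ was not called (-0.15 ± 0.14). The median of the 5 was -1.07 log2 units, against 0.01 over all probe sets. COR15A and COR15B lie side by side and are similar in sequence, so their probe sets may share signal, which was not tested.

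Redox and lipid enzymes were also among the falls. MSRB5, a methionine sulfoxide reductase that repairs oxidised proteins, fell by 1.58 ± 0.13 (limma adjusted p = 1.79e-07). Its arrays went from 7.78 and 7.81 to 5.53 and 5.50 in Col and from 5.45 and 5.51 to 4.51 and 4.42 in ft-2, so the day 0 level in ft-2 was close to the day 3 level in Col. The ft-2 arrays of day 3 lay below the lower quartiles of the arrays (4.69 to 4.92) for this gene. AT1G06830, of the glutaredoxin family, fell by 1.48 ± 0.16 (limma adjusted p = 2.55e-06), least in lfy-12 (0.63 ± 0.26). AT1G73600, a phosphoethanolamine N-methyltransferase of phosphatidylcholine synthesis, went from 8.44, 9.02 and 10.15 to 7.07, 7.82 and 8.28 and fell by 1.39 ± 0.20 (limma adjusted p = 7.69e-05). AT4G34950, a membrane transporter of the major facilitator superfamily, fell by 1.25 ± 0.15 (limma adjusted p = 1.32e-05), and CCL, a light-responsive gene named for its likeness to CCR transcripts, fell by 1.14 ± 0.17 (limma adjusted p = 0.000118).

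Falls of 2 genes for small defence peptides had a wide spread. AT3G05730, a defensin-like gene, fell by 1.60 ± 0.36 (limma adjusted p = 0.00494), with responses of -3.09 in Ler and -0.13 in Col, each ± 0.70. Its replicates were far apart, at 10.69 and 8.46 for Ler at day 0 and at 8.94 and 6.61 for ft-2 at day 3. THI2.2, a thionin gene, fell by 0.98 ± 0.18 (limma adjusted p = 0.000862), by 1.60 in lfy-12 and 0.30 in Col, each ± 0.36. AT5G62210, related to embryo-specific protein ATS3, fell by 1.01 ± 0.17, and AT1G70820, of the phosphoglucomutase family, by 0.95 ± 0.16 (limma adjusted p = 0.000477 and 0.000424). Col fell least in both, by 0.13 and 0.54. Of the probe sets with no single gene, 267461_at fell by 2.67 ± 0.17, from a mean of 8.37 to 5.70, and 248337_at by 1.88 ± 0.21, with -2.50 in co-2 and -0.59 in Col.

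**Figure D2:**
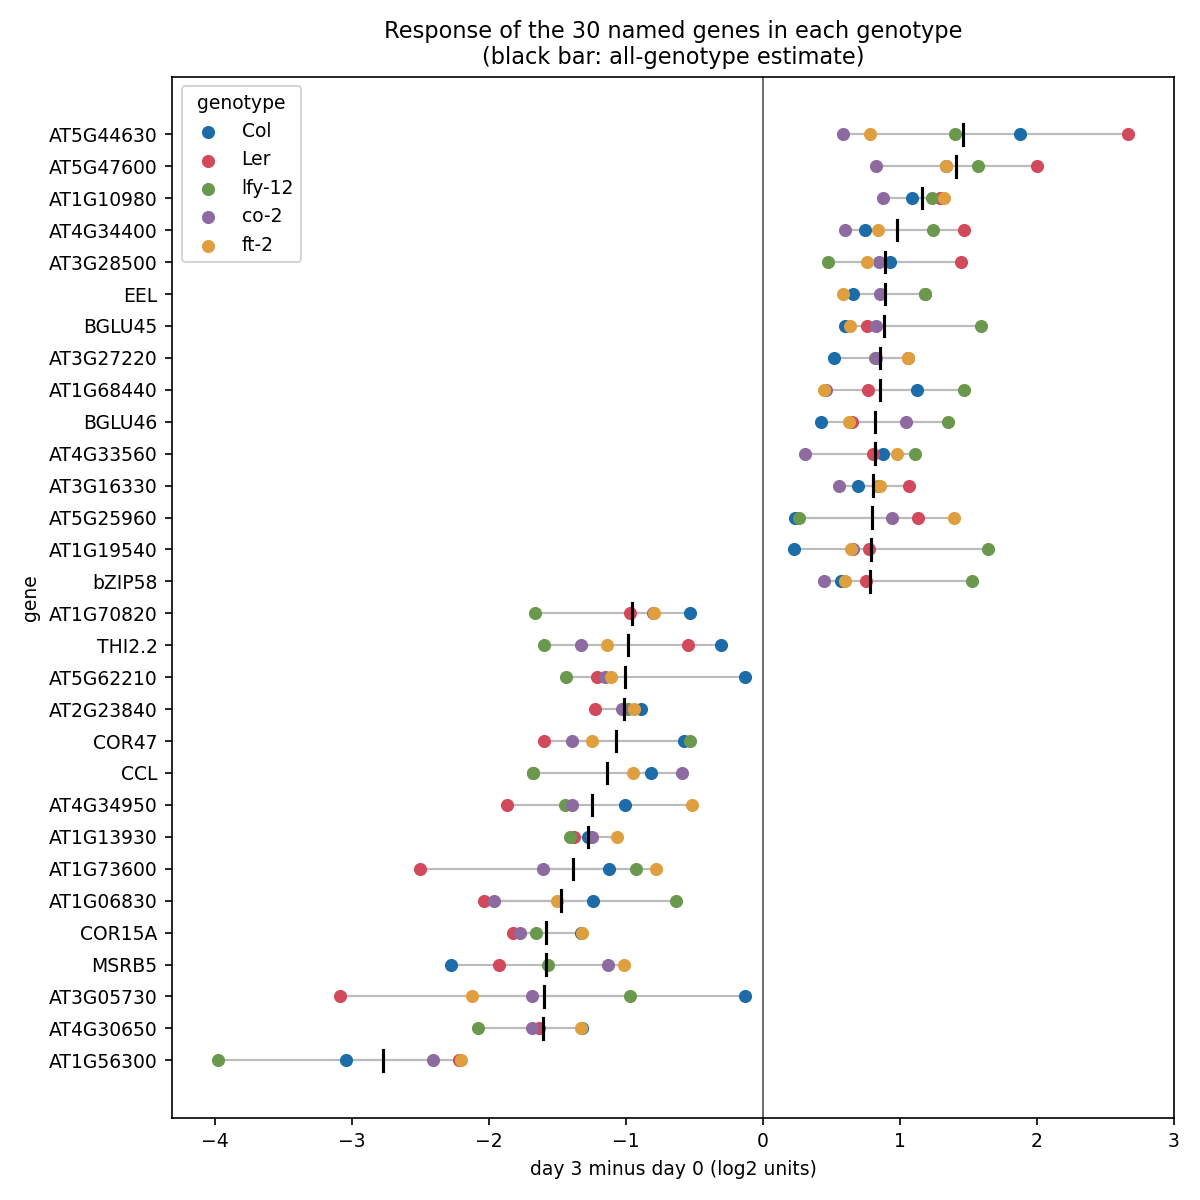
Day 3 minus day 0 in log2 units for the 15 named rises and 15 named falls, with a coloured point for each genotype (mean of 2 arrays against 2) and a black bar for the estimate over all genotypes. All points of a gene lie on 1 side of 0, from 0.58 to 2.67 for AT5G44630 and from -2.21 to -3.98 for AT1G56300.

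By day 7 the named genes had followed different courses. Of the 15 rises, 9 had a day 7 mean over the 10 arrays above their day 3 mean and 6 had one below it. AT3G28500 went from a mean of 7.77 at day 0 through 8.66 and 9.71 to 10.72 at day 7, and AT5G44630 from 4.96 through 6.42 and 7.53 to 8.90. Their means increased from each sampled day to the next in all 5 genotypes. In contrast, bZIP58 had means of 8.46, 9.24, 8.83 and 8.43 on days 0, 3, 5 and 7, and AT1G19540 had 8.33, 9.11, 8.84 and 8.30, so both were back near the start. Averaged over the genotypes, BGLU45 (6.78, 7.66, 7.46 and 7.12) and BGLU46 (5.84, 6.66, 6.40 and 6.06) were also highest at day 3. The course differed between genotypes, without a test. From day 3 to day 7, BGLU45 went from 7.67 to 6.78 in Ler but from 6.97 to 7.03 in co-2 and from 6.93 to 7.22 in ft-2. BGLU46 went from 6.09 to 4.93 in Ler but from 6.63 to 6.58 in co-2 and from 6.58 to 6.64 in ft-2. Of the 15 falls, 14 were lower at day 7 than at day 3, and AT5G62210 was higher. AT1G56300 was at 5.07 on day 3 and at 4.71 on day 7, and AT1G13930 went from 11.52 through 10.24 and 9.62 to 9.53. These later means are descriptions without a test, and genes picked for a large day 3 change can lie closer to day 0 on another day by that choice alone.

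**Figure D3:**
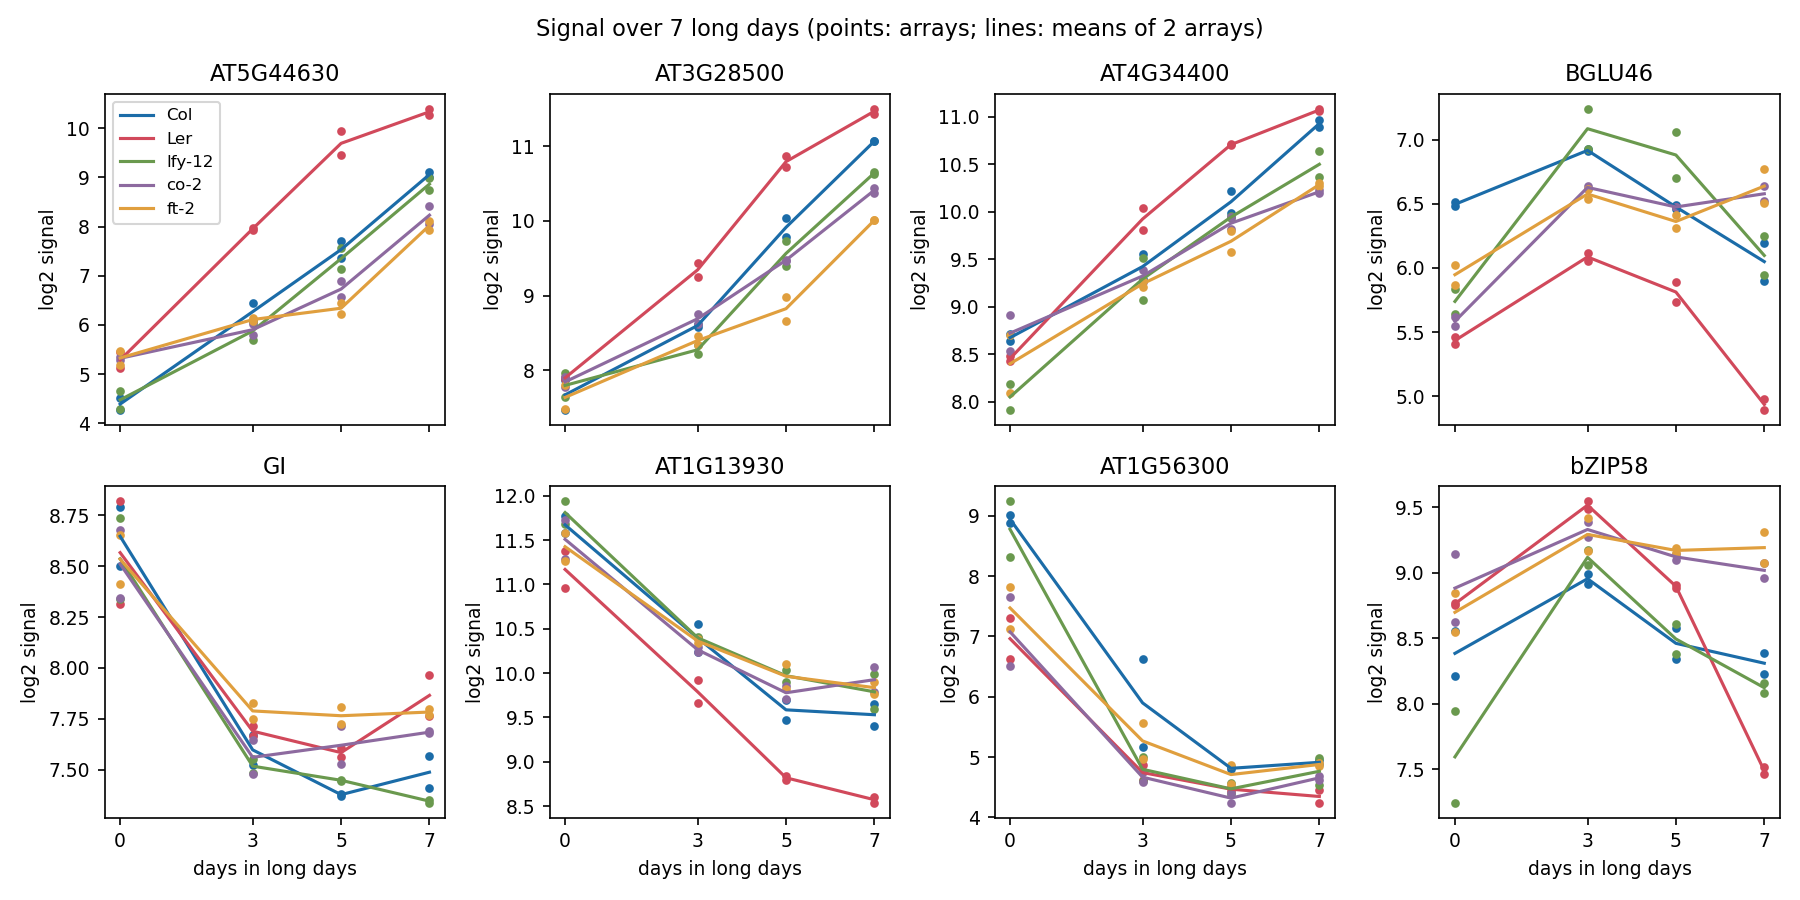
Log2 signal of 8 genes against days in long days (0, 3, 5 and 7), with a point for each array and a line through the mean of 2 arrays for each genotype. AT5G44630, AT3G28500 and AT4G34400 climb through day 7, BGLU46 and bZIP58 peak at day 3 in Col, Ler and lfy-12, and GI, AT1G13930 and AT1G56300 drop most between days 0 and 3.

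GI (GIGANTEA), a clock-controlled gene that promotes CO transcription, changed in a single step. Its 10 arrays read 8.31, 8.58 and 8.82 at day 0 and 7.48, 7.65 and 7.83 at day 3, so that the days were separated by a clear gap in all genotypes. It fell by 0.93 ± 0.07 (limma adjusted p = 5.01e-08), by 0.75 in ft-2, 0.88 in Ler, 0.95 in co-2, 1.02 in lfy-12 and 1.05 in Col, each ± 0.17. The mean was 7.63 at day 3, 7.56 at day 5 and 7.63 at day 7. At day 0 the array numbered 2 stood above the array numbered 1 in every genotype, by 0.24 to 0.51, and GI fell by 0.79 among arrays numbered 1 and by 1.07 among those numbered 2. The only other gene of a 29-gene clock list with a probe set listed, CDF5, encodes a DOF factor of the group that represses CO transcription. It rose by 0.49 ± 0.08 (limma adjusted p = 0.000272), by 0.84 in Col and 0.14 in Ler, each ± 0.14. HYH, a bZIP partner of the light-signalling factor HY5 and the only measured gene of 20 in the light list, was not called (-0.18 ± 0.20).

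Among floral regulators, more of the measured genes were called higher than lower. Of a list of 20 floral promoters and meristem identity genes, 8 were measured, of which 5 were called higher, 1 was called lower and 2 were not called. Over all probe sets the shares called were 7.98% higher and 6.64% lower, and the list was chosen with earlier results of these data known. AGL42, a MADS-box gene related to SOC1, rose by 0.55 ± 0.10 (limma adjusted p = 0.000778), from 5.49, 6.18 and 6.61 to 6.27, 6.66 and 7.64, by 0.96 in Ler and by 0.26 in co-2. UFO, an F-box partner of LFY, rose by 0.50 ± 0.08 (limma adjusted p = 0.000202). The UFO response ran from 0.36 (ft-2) through 0.43 (co-2), 0.49 (Col) and 0.54 (lfy-12) to 0.67 (Ler), all ± 0.19. Between Ler and the late-flowering mutants the UFO difference was 0.27 ± 0.23 and was not called. PUCHI, an AP2-type factor of floral meristem identity, rose by 0.38 ± 0.08, FD by 0.34 ± 0.08 and the MADS-box gene AGL24 by 0.23 ± 0.04 (limma adjusted p = 0.00213, 0.00667 and 0.00115). For AGL24 the days did not overlap in any genotype, although its response in co-2 was 0.07 ± 0.09. FD lost its call without the Ler arrays (adjusted p = 0.0779). AGL19, a MADS-box promoter of flowering known from vernalization, was the member that fell, by 0.51 ± 0.07 (limma adjusted p = 2.39e-05), with responses from -0.34 in ft-2 to -0.61 in co-2. AGL71 (0.04 ± 0.07) and AGL72 (0.10 ± 0.05) were not called. The 5 members called higher were each called in Col and Ler (limma adjusted p from 0.00329 for AGL42 to 0.0332 for AGL24). None of them was called in co-2 and ft-2 (limma adjusted p from 0.104 for PUCHI to 0.48 for FD). In lfy-12 only AGL42 and AGL24 of them were called. The difference between the 2 pairs was not called for any of them.

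None of the 3 measured genes among 16 floral repressors was called. The AP2-like repressors SNZ and SMZ had changes of -0.36 ± 0.13 and -0.19 ± 0.09, and ATC, a relative of TFL1, had 0.06 ± 0.08 (limma adjusted p = 0.0706, 0.162 and 0.747). SPL16, the only measured SPL gene, had -0.09 ± 0.06. The meristem genes CLV3 (-0.23 ± 0.09) and PHV (0.05 ± 0.05), the organ genes YAB3 (-0.01 ± 0.04), YAB5 (-0.12 ± 0.06) and YUC4 (0.02 ± 0.08), and the gibberellin receptor genes GID1A (0.05 ± 0.06), GID1B (0.14 ± 0.07) and GID1C (0.03 ± 0.06) were not called either. All 3 measured genes of a 31-gene cell division list were called, 2 higher and 1 lower, against 7.98% and 6.64% of all probe sets, with small changes. The Aurora kinase genes AUR1 and AUR2 rose by 0.24 ± 0.04 and 0.31 ± 0.06 (limma adjusted p = 0.000579 and 0.00183). PRL (PROLIFERA), the MCM7 subunit of the replication helicase, fell by 0.24 ± 0.04 (limma adjusted p = 0.000361), by 0.16 in Col to 0.31 in lfy-12.

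Of the 6 measured photosynthesis genes, LHCB4.3, a minor antenna protein of photosystem II, rose by 0.70 ± 0.10 (limma adjusted p = 9.09e-05) and PORB, a chlorophyll synthesis enzyme, fell by 0.35 ± 0.08 (limma adjusted p = 0.00433). The related antenna genes LHCB4.1 and LHCB4.2 were at -0.06 ± 0.06 and 0.02 ± 0.13, and RCA, the activator of Rubisco, at -0.31 ± 0.18, none of them called. RCA varied between replicates, at 12.76 and 11.21 for Ler at day 0. Of 69 genes of the plastid genome, 2 were called lower (2.90%, against 6.64% of all probe sets) and none higher, with a median of -0.10.

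Glucosinolate genes that were called were mostly lower at day 3, and 2 of these falls were no longer called without some of the genotypes. Of 27 genes of methionine-derived (aliphatic) glucosinolate synthesis, 6 were measured and 2 were called lower (33.3%), against 14.6% of all probe sets called in either direction. BCAT4, the aminotransferase of the first chain-elongation step, fell by 0.56 ± 0.16 (limma adjusted p = 0.021). Its arrays went from 11.38 and 11.48 to 9.34 and 10.01 in Col, a fall of 1.75 ± 0.19, whereas the other genotypes lay between 0.02 and -0.46. Without the Col arrays, without the Ler arrays or with a replicate block, BCAT4 was no longer called (highest adjusted p over the alternatives 0.063), and the interaction was not called (adjusted p = 0.0605). AOP3, a dioxygenase of side-chain modification, read 4.19 to 4.65 on all arrays of Col and lfy-12 and 9.87 to 11.25 on those of the other genotypes. It fell by 0.51 ± 0.09 (limma adjusted p = 0.000848), with responses of -0.85 in Ler, -0.77 in ft-2 and -0.56 in co-2, each ± 0.16. In the indole glucosinolate and myrosinase list, 5 of 19 genes were measured, and 1 was called higher and 2 lower (60%). PYK10, the main beta-glucosidase stored in ER bodies, fell by 0.58 ± 0.13 (limma adjusted p = 0.00538), by 1.45 ± 0.18 in Col and 0.03 ± 0.18 in ft-2. BGLU33, a related beta-glucosidase, fell by 0.91 ± 0.26 (limma adjusted p = 0.0234), with responses of -2.07 in Ler and 0.40 in lfy-12, each ± 0.48. Its call was lost in 6 of 34 alternatives, without the genotype Col, Ler, co-2 or ft-2, without Ler day 3 replicate 1, and without the 2 arrays that carried transcripts of the other accession (highest adjusted p over the alternatives 0.171). BGLU45, described above, was the member called higher. GSTU20, UGT74C1, UGT74B1, NAI1 and NAI2 were not called.

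In the flavonoid list, AT5MAT, an anthocyanin malonyltransferase, fell by 0.32 ± 0.08 (limma adjusted p = 0.00719), and DFR (0.02 ± 0.09) and UF3GT (-0.22 ± 0.08) were not called. THI2.1, a thionin gene induced by jasmonate, rose by 1.19 ± 0.36 (limma adjusted p = 0.0312), but its response was 2.97 in ft-2 and -0.91 in co-2, each ± 0.54. Its call was lost in 14 of 34 alternatives, among them those without ft-2, Ler or lfy-12 as a whole and those without any 1 of the 4 ft-2 arrays, Ler day 0 replicate 2, Ler day 3 replicate 1, lfy-12 day 0 replicate 2 or either lfy-12 array of day 3 (highest adjusted p 0.217). Over all 19 lists, 56 of 351 genes were measured, of which 11 rose, 13 fell and 32 were not called. The share called was 42.9%, against 14.6% of all probe sets, and the lists were chosen with earlier results of these data known. The lists for vascular tissue and for low sugar and dark had no measured gene, and the starch genes APL3 and SBE2.2, the defensin PDF1.2 and the photosynthesis gene HEMA2 were not called.

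**Figure D4:**
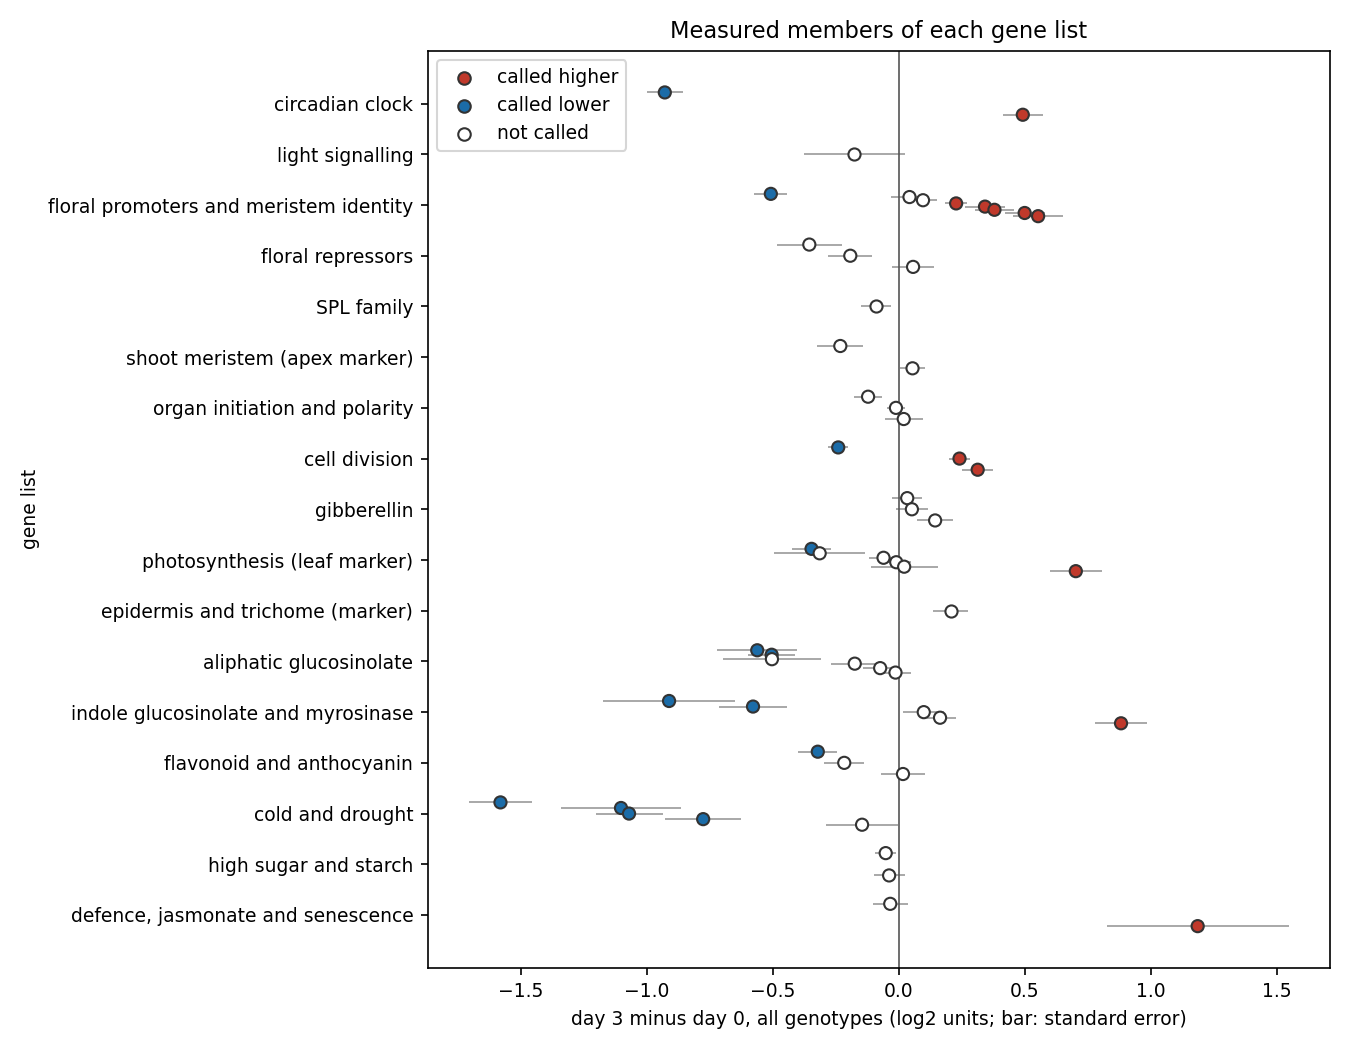
Day 3 minus day 0 over all genotypes (log2 units, bars for the standard error) for each measured gene of the 17 lists with a measured member, coloured where the change was called. Members of the cold and drought list reach -1.58, and called floral promoters lie between 0.23 and 0.55 apart from AGL19 at -0.51.

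In 3 of the 4 groups defined by words in the gene symbols, the share called was near or below the 14.6% of all probe sets. Of 7 histone-named genes, HON4 was called lower (14.3%). Of 12 glutathione S-transferase genes, GSTU26 was called higher (8.33%). Of 19 expansin genes, which loosen cell walls, EXPA20 rose by 0.53 and EXPA15 fell by 0.22 (10.5%). In the chlorophyll group of 3 genes, 2 were called lower (66.7%), PIFI by 0.75 ± 0.17 (limma adjusted p = 0.00557) and PORB, given above, by 0.35, and HCF101 was not called (-0.19 ± 0.08). These names follow from the rule for the groups and were not chosen by size.

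The accessions and the late-flowering mutants were then compared, with the mean response of each pair taken from its own arrays. All calls came from 1 model that pooled the residual variance over the 20 arrays, so they are not independent tests. Leaving out Col day 0 replicate 1, for example, changed the count called in co-2 and ft-2 from 726 to 613. In Col and Ler together, 1401 probe sets were called (6.16%), 712 of them higher (3.13%) and 689 lower (3.03%). In co-2 and ft-2 together, 726 were called (3.19%), 277 higher (1.22%) and 449 lower (1.97%). In lfy-12 alone, 1256 were called (5.52%), 918 higher (4.04%) and 338 lower (1.49%). Of the risers of the late mutants, 158 were also called higher in Col and Ler, which is 57.0% of the co-2 and ft-2 list and 22.2% of the Col and Ler list. Of their fallers, 257 were shared, or 57.2% and 37.3% of the lists. Without both arrays that carried the other accession's transcripts, 146 risers were shared (71.9% of 203 and 17.8% of 818) and 152 fallers (69.1% of 220 and 20.3% of 749). With all arrays, called in opposite directions were 2 probe sets that rose in Col and Ler and 1 that fell there, and without the 2 arrays there were none. Probe sets called in the same direction in Col and Ler, in co-2 and ft-2, and in lfy-12, with the same sign in each genotype, numbered 108 higher (0.475%) and 107 lower (0.47%). Of the named genes, 11 rises and 7 falls were in this shared group, among them EEL, AT1G10980, BGLU45, BGLU46, AT1G56300, COR15A, MSRB5 and AT1G13930, and GI, CDF5 and AGL19 of the lists were in it too.

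These counts moved with single arrays more than the all-genotype count did. For Col and Ler the count of 1401 became 926 and 798 without the first and the second Col array of day 0, 809 and 928 without the Col arrays of day 3, and 812 and 916 without those of Ler at day 3, in the order of their replicate numbers. For co-2 and ft-2 the count of 726 became 312 without co-2 day 0 replicate 2, 339 without co-2 day 3 replicate 1, 376 without ft-2 day 0 replicate 2, 276 without ft-2 day 3 replicate 2, and 423 without both arrays that carried the other accession's transcripts. For lfy-12 the count of 1256 became 230 without lfy-12 day 0 replicate 2, and 272 and 378 without lfy-12 day 3 replicate 1 and 2. The 215 shared probe sets (0.945%) became 104, 110 and 117 without those lfy-12 arrays, 128 without co-2 day 0 replicate 2, 115 without ft-2 day 3 replicate 2 and 195 without both arrays with the other accession's transcripts.

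The size of the response is a further description. Probe sets called higher in Col and Ler had a median response of 0.39 there, 0.18 in co-2 and ft-2 and 0.36 in lfy-12. Those called lower had medians of -0.49, -0.32 and -0.27. Probe sets called in co-2 and ft-2 had medians of 0.38 and -0.49 there, 0.30 and -0.39 in Col and Ler, and 0.37 and -0.29 in lfy-12. Without the 2 arrays that carried the other accession's transcripts, the Col and Ler lists had medians of 0.36 and -0.47 there, 0.22 and -0.29 in co-2 and ft-2, and 0.36 and -0.26 in lfy-12. The co-2 and ft-2 lists then had 0.47 and -0.61 there, 0.36 and -0.47 in Col and Ler, and 0.46 and -0.42 in lfy-12. A list tends to have its largest median in the genotypes it was called in, by construction, and no test was made of these medians. Among the 17 probe sets that rose over 2-fold in all genotypes together, the median was 0.78 in ft-2, 0.82 in co-2, 1.34 in Col, 1.40 in Ler and 1.46 in lfy-12. Among the 30 that fell, it was -1.16, -1.31, -1.21, -1.69 and -1.47 in the same order. Without the 2 arrays, the medians of these rises were 1.08 in ft-2 and 0.85 in co-2, and those of the falls were -1.34 and -1.22.

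**Figure D5:**
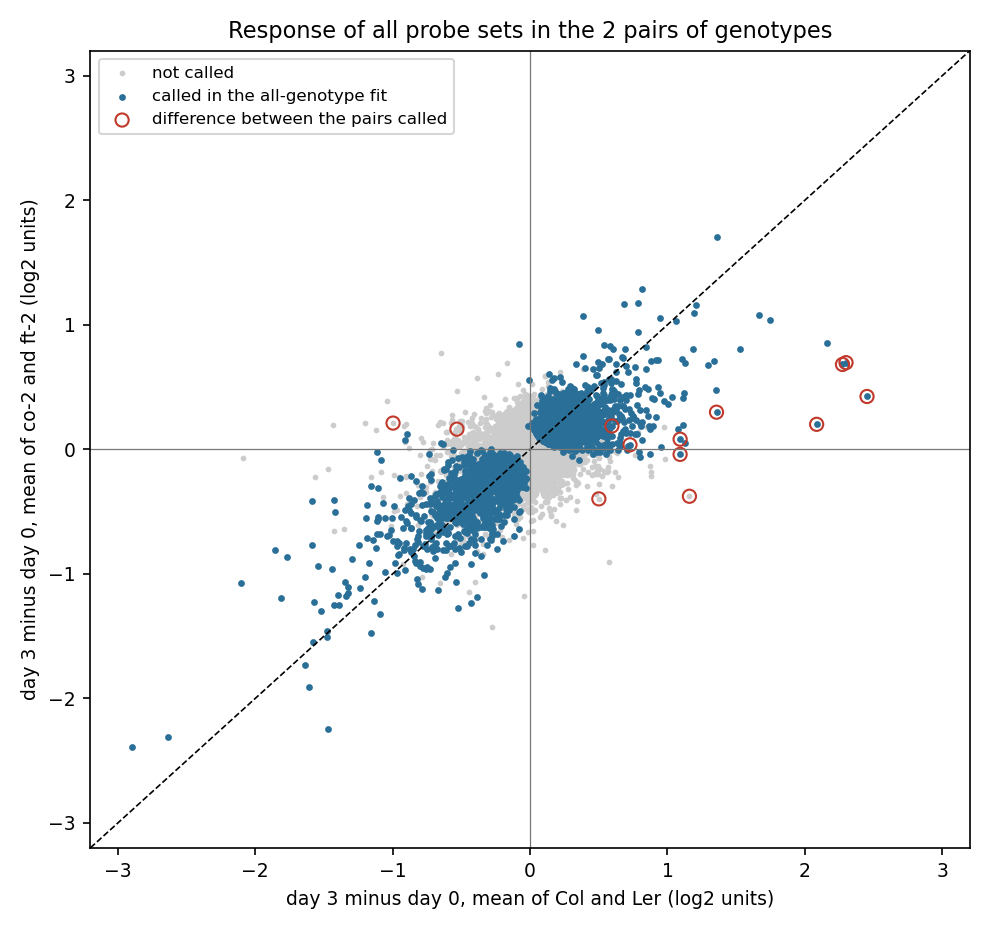
Day 3 minus day 0 of each of the 22746 probe sets in Col and Ler (horizontal axis, log2 units) and in co-2 and ft-2 (vertical axis, log2 units), with probe sets called over all genotypes in blue and a dashed line of equal response. Red rings mark the 13 probe sets whose difference between the pairs was called, 11 of them with a larger value in Col and Ler.

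Tests of the difference itself called few probe sets. The response of Ler minus that of co-2 and ft-2 was called for 14 (0.0615%), 11 higher (0.0484%) and 3 lower (0.0132%), with 1220 at an unadjusted p under 0.05. The response of Col and Ler minus that of co-2 and ft-2 was called for 13 (0.0572%), 11 higher (0.0484%) and 2 lower (0.00879%), with 1530 at an unadjusted p under 0.05. The interaction of day with all 5 genotypes was called for 22 (0.0967%), with 2140 at an unadjusted p under 0.05, and 12 of the 22 were also called over all genotypes. A probe set that was not called here was not shown to respond alike, since each genotype had 2 arrays a day.

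These small counts also turned on single arrays. For Ler minus co-2 and ft-2 the 14 became 9, all higher, without Ler day 0 replicate 1 and 191, with 28 higher and 163 lower, without Ler day 0 replicate 2. They became 10 without both arrays with the other accession's transcripts, 5 and 6 without the Ler arrays of day 3, and 9 without co-2 day 0 replicate 1, co-2 day 3 replicate 1 or ft-2 day 3 replicate 2. For Col and Ler minus co-2 and ft-2 the 13 became 8 without Col day 0 replicate 2, co-2 day 3 replicate 1 or ft-2 day 3 replicate 2, 30 without Ler day 0 replicate 1 (22 higher and 8 lower), 43 without Ler day 0 replicate 2 (15 higher and 28 lower), 9 without both arrays with the other accession's transcripts, and 23 without co-2 day 3 replicate 2. The 22 of the interaction became 210 without lfy-12 day 0 replicate 1 and 43 and 334 without Ler day 0 replicate 1 and 2, and 13 without both arrays with the other accession's transcripts.

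AT5G44630 was the clearest case of an unequal response. In Ler it rose by 1.99 ± 0.22 log2 units more than in co-2 and ft-2 (limma adjusted p = 0.000432), and in Col and Ler by 1.59 ± 0.18 more (limma adjusted p = 0.000558). Both differences, and the interaction (adjusted p = 0.00511), remained called in all 26 alternatives. ATLP-1, a thaumatin-like gene, went from 10.80 and 10.81 to 11.53 and 11.45 in Ler and from 11.18 and 11.15 to 11.25 and 11.33 in co-2. It rose in all genotypes, and by 0.41 ± 0.07 more in Col and Ler than in co-2 and ft-2 (limma adjusted p = 0.0343), a difference that lost its call in 17 of 26 alternatives. AT1G02190, a relative of the wax gene CER1, went from 5.14 and 5.62 to 6.73 and 6.75 in Ler, while co-2 stayed between 5.00 and 5.35 and ft-2 between 5.06 and 5.20. Its difference between Ler and the late mutants was 1.34 ± 0.22 (limma adjusted p = 0.0281).

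Other responses were uneven between genotypes. AT4G26280 rose in Ler from 4.79 and 5.20 to 6.93 and 6.73, and on the other 16 arrays it lay between 4.19 and 5.01, near the lower quartile of the arrays (interaction adjusted p = 0.00155). AT2G43600, of the chitinase family, went from 7.06 and 7.32 to 5.98 and 5.81 in Col and from 6.87 and 7.22 to 5.86 and 5.85 in lfy-12, and lay between 4.57 and 5.08 on all 12 arrays of the other genotypes (interaction adjusted p = 0.00873). AT4G18280 and AT2G19970 rose in lfy-12, by 1.58 ± 0.24 and 1.14 ± 0.19, and had responses between -0.76 and 0.17 elsewhere (interaction adjusted p = 0.0404 and 0.0488). GSL-OH, a dioxygenase of glucosinolate side chains, had responses of -1.73 in Col, -0.59 in lfy-12, -0.51 in Ler, -0.34 in ft-2 and 0.65 in co-2, each ± 0.23 (interaction adjusted p = 0.0489). In co-2 its day 3 arrays read 6.45 and 5.61, and the higher value is from the array with transcripts of the other accession. The interaction of GSL-OH lost its call in 20 of 26 alternatives. Among them were the one without that array and others without single arrays of Col, lfy-12, Ler or ft-2.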

How the data were processed

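The value table has 40 columns, 1 per array, and 22810 probe sets. What the authors did to make it is not given in the sources used here. As deposited, the values were read as log2 signal, since a natural antilog of the highest, 834443, would exceed the 16-bit limit of 65535. They run from 3.03 to 13.63 and were used unchanged. Genotype, day and replicate number came from the sample titles.

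After 64 control probe sets were left out, 22746 were tested in R 4.3.3 with limma 3.58.1 and an intensity trend, two-sided, with Benjamini-Hochberg adjustment over all of them. The all-genotype response came from a model of genotype and day on 20 arrays (14 residual degrees of freedom). Neither this model nor its alternatives had a term for replicate number within a day. The p-values therefore do not account for offsets by number that the genotypes shared at day 0, which are given under the other observations. Responses of single genotypes, their differences and the 4-difference interaction came from group means on the same arrays (10 residual degrees of freedom). Errors are standard errors of log2 differences. The steps were tested on simulated data. The number of arrays limits the precision, and the depth of a library has no counterpart here.

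Of the tested probe sets, 13513 list 1 gene, 503 several and 8730 none. Genes were named through RefSeq symbols, taking the probe set of highest mean where a gene has several. The named genes are the 15 largest rises and falls described in the results, up to 10 called genes of the interaction, up to 5 in each direction for each difference, and all measured members of 19 lists. Comparison, members and lists were chosen with earlier results of these data known. Groups by annotation words used symbols, which gave no gene for ribosomal protein, heat shock and the mitochondrial genome. Promoter motifs were not analysed here. Shares of the other accession's transcripts rest on 9 to 26 probe sets over 3 log2 units apart.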

Additional observations from a re-analysis of the deposited data

Results flagged for a closer look

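These responses differed between genotypes by a test of the difference itself, with limma and adjustment over all probe sets. The day by genotype interaction had adjusted p = 0.00155 for AT4G26280 (response 1.83 in Ler), 0.00511 for AT5G44630 (2.67 in Ler and 0.58 in co-2), 0.00873 for AT2G43600 (-1.19 in lfy-12 and 0.03 in Ler), 0.0404 for AT4G18280 (1.58 in lfy-12), 0.0488 for AT2G19970 (1.14 in lfy-12) and 0.0489 for GSL-OH (-1.73 in Col and 0.65 in co-2). The first 3 held in all 26 alternatives, whereas AT4G18280 lost its call in 14, AT2G19970 in 19 and GSL-OH in 20.

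The response in Ler exceeded that in co-2 and ft-2 by 1.99 log2 units for AT5G44630, 1.43 for AT4G26280, 1.34 for AT1G02190 and 0.499 for ATLP-1. The AT4G26280 difference lost its call only without Ler day 3 replicate 1 (adjusted p = 0.0555), that of AT1G02190 in 10 alternatives (highest adjusted p = 0.235) and that of ATLP-1 in 17 (highest adjusted p = 0.30). The response in Col and Ler exceeded that in co-2 and ft-2 by 1.59 for AT5G44630, which held in all 26 alternatives, and by 0.408 for ATLP-1, which did not in 17. Groups of 2 arrays were too small to look for single outlying arrays.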

How the results depend on the processing

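Each of the 30 named rises and falls was called under all 34 alternatives, and 17 of the 24 other named genes that were called were also called throughout. Among these alternatives, the one without both arrays that carried the other accession's transcripts was picked from the values of the arrays. None changed sign. The all-genotype count of 3325 was 2508 with a replicate block, 4948 with all 40 arrays, 4152 with array weights, 3605 without both arrays that carried the other accession's transcripts, 3598 with median centring, where 65.5% of calls were higher against 54.6% in the main fit, 1907 without Ler, and 2776 to 3449 when 1 array was left out. In further alternatives, added after seeing the data, the all-genotype count was 556 among arrays numbered 1 (36.9% higher) and 625 among those numbered 2. The deviations of same-numbered arrays of the 2 days had correlations over probe sets of -0.42 to 0.11 within genotypes, above 0 in lfy-12 alone. With 2 arrays a group, these values cannot settle whether the number pairs the arrays. With all 40 arrays in 1 fit, the counts were 2232 for Col and Ler, 1521 for co-2 and ft-2, 2388 for lfy-12, 447 for shared responses, 36 for Ler minus co-2 and ft-2, 51 for Col and Ler minus co-2 and ft-2 and 253 for the interaction. Without both arrays that carried the other accession's transcripts, they were 423 for co-2 and ft-2 and 13 for the interaction. The share called higher moved from 38.2% to 63.9% for co-2 and ft-2 with median centring and from 73.1% to 62.1% for lfy-12 with quantile normalization. Leaving out 1 array gave 798 to 1510 for Col and Ler, 276 to 1043 for co-2 and ft-2, 230 to 1577 for lfy-12, 104 to 236 for shared responses, 5 to 191 and 8 to 43 for the differences and 15 to 334 for the interaction. The causes were not tested. Calls were lost for BCAT4 with the replicate block and without Col or Ler, for AT5MAT without lfy-12, for AT1G02190 without Ler or lfy-12, and for AT2G43600 in 15 alternatives. Only 2 arrays a group limit every statement on single genotypes, and transcripts near the lower quartile of the arrays can change by more than their values show.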

Other observations

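Replicate numbers were shared across genotypes, and the labels do not say what a number stands for. At day 0, 1418 of the 22746 probe sets read higher on the array numbered 2 than on the array numbered 1 in all 5 genotypes, and 959 read lower in all 5. At day 3 these counts were 690 and 807. Of the 1510 probe sets called lower at day 3, 136 read higher on number 2 in all 5 genotypes at day 0 and 27 read lower in all 5. Of the 1815 called higher, 37 read higher and 153 read lower. Compared with all probe sets at day 0, reading higher on number 2 was more frequent among those called lower and less frequent among those called higher. Reading lower on number 2 went the other way, and no test was made of these shares. GI, AT1G13930, AT4G30650, AT1G56300 and CCL, which were all lower at day 3, were higher on number 2 at day 0 in 5 of 5 genotypes, by a mean of 0.35, 0.32, 0.44, 0.72 and 0.38 log2 units. Of the named rises, AT5G47600, AT3G27220, AT1G68440 and AT3G16330 were lower on number 2 at day 0 in all 5 genotypes. Their mean differences were -0.35, -0.24, -0.52 and -0.17 log2 units. COR15A showed no such offset (mean -0.02), and neither did AT1G10980 (-0.10, higher on number 2 in 1 genotype). With arrays numbered 1 alone, 27 of the 30 named rises and falls were called and CCL was not (limma adjusted p = 0.0546, 5 arrays a side), and with those numbered 2 alone 24 were called. None changed sign.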
